A study of Mus musculus with 4 samples.

Results

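Cofilin and the enzymes that switch it on and off form a small pathway that controls how fast actin filaments turn over. The 10 genes described here are the cofilins Cfl1 and Cfl2, the LIM kinases Limk1 and Limk2, the p21-activated kinases Pak1 and Pak3, the slingshot phosphatases Ssh1, Ssh2 and Ssh3, and the actin nucleator Cobl. They were chosen by gene symbol, and each matched 1 row of the 28193 genes in the expression table. All 10 were among the 22338 genes that were tested, each of which had over 5 counts in all 4 libraries.

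The libraries held ribosome-bound RNA from hippocampal cells of male C57BL/6J mice aged 3 to 5 months (genotype given in the labels as cFos-Cre:Ribotag, tissue as dorsal hippocampus). Per the study's methods, 1 virus placed in dorsal CA1 carried a tamoxifen-dependent Cre driven by the c-Fos promoter, and another carried a Cre-dependent, HA-tagged ribosomal protein Rpl22, so that cells with an active c-Fos promoter while 4-hydroxytamoxifen was present gained a tag on their ribosomes. Every mouse, controls included, received 4-hydroxytamoxifen and was kept awake for 5 h on day 0. The SD group was kept awake for another 5 h on day 7, when the NSD group was left undisturbed, and tissue was taken from both at ZT 5. Each library pooled CA1 tissue from 5 mice before the tagged ribosomes were precipitated, and each group had 2 libraries, with totals between 153511705 and 195910235 counts. The comparison therefore asked how a second sleep deprivation altered these transcripts in cells tagged during the first. With 2 pools a group, every p-value below concerns differences between pools and not between single mice. The tests of single genes also draw on the spread of other genes.

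Cofilin binds actin filaments and severs them, and in dendritic spines this turnover shapes the size and persistence of the spine. A LIM kinase switches cofilin off by phosphorylating a serine near its start, and a slingshot phosphatase removes that phosphate and switches it on again. PAK1 and PAK3 act one step earlier: once bound by the small GTPases Rac or Cdc42 they phosphorylate and activate LIM kinase. Cordon-bleu, the product of Cobl, starts filaments anew and is known for its part in dendrite branching. In the hippocampus, this pathway is one of those studied in connection with the loss of spines after lost sleep. RNA counts carry no information on phosphorylation, so the activity of these enzymes was not measured here.

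The serine on which the kinases and phosphatases act is encoded by the third codon of each cofilin. The first 30 coding bases of Cfl1 (GRCm39, chr19:5540483-5545229, plus strand), Cfl2 (chr12:54905594-54909662, minus strand) and their relative Dstn, which encodes destrin, are shown 5′ to 3′ from the GENCODE annotation, with the codon of that serine in capitals:
Cfl1: atggccTCTggtgtggctgtctctgatggt
Cfl2: atggcaTCTggagttacagtgaatgatgaa
Dstn: atggccTCAggagttcaggttgcggatgaa
The codon was TCT in both cofilins and TCA in Dstn. Over the whole coding sequence, Cfl1 and Cfl2 were identical at 71.5% of aligned bases, and their longest identical run was 13 bases. Between the paralogs of the other families the longest identical run was 20 bases for Limk1 and Limk2, 23 for Pak1 and Pak3, and 26 for Ssh1 and Ssh2. These stretches are shorter than a sequencing read.

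Levels between genes were compared in CPM, which are counts scaled to the size of each library, divided by the kilobases of exon of each gene. Cfl1, the main cofilin of most tissues other than muscle, was the most abundant of the 10, at 89.6 to 99.6 CPM per kilobase over the 4 libraries. Pak1 came next at 26.2 to 35.4 CPM per kilobase. Pak3, Ssh2, Ssh1, Limk1, Cfl2 and Limk2 followed with mean levels between 13.3 and 8.02 CPM per kilobase, and the range of each over the 4 libraries overlapped that of its neighbour in this order, although Ssh2 was above Ssh1, and Limk1 above Cfl2, within every library. Cobl, at 4.45 to 6.19 CPM per kilobase, lay below all of these in every library. Ssh3 was lowest, at 1.52 to 3.05 CPM per kilobase. When the longest coding transcript was taken as the length in place of all exon bases, Cfl1 and Pak1 kept the highest mean levels and Cobl and Ssh3 the lowest, but Cobl then exceeded Cfl2 in SD library 2.

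**Figure D1:**
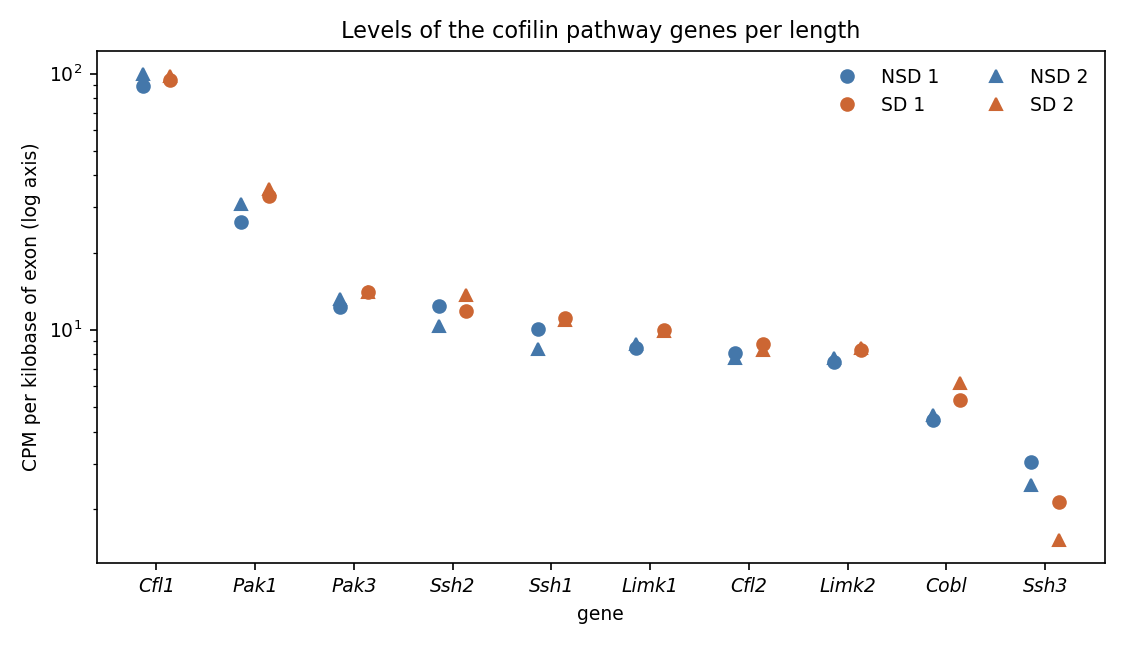
Expression of the 10 genes in each library in CPM per kilobase of exon, on a log axis, ordered by the mean of the 4 libraries; blue marks NSD and orange SD, circles library 1 and triangles library 2. Cfl1 stands apart at 89.6 to 99.6 CPM per kilobase and Ssh3 at 1.52 to 3.05, while the middle genes overlap their neighbours.

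In the comparison of SD with NSD, none of the 10 genes passed edgeR's quasi-likelihood test at an adjusted p under 0.05 with a fold change over 1.2, where 3.10% of all genes tested did so (0.770% higher and 2.33% lower in SD). At an unadjusted p under 0.05, 6 of the 10 stood out, 5 of them higher and 1 lower in SD, against 19.1% of all genes (6.86% higher and 12.2% lower). Of the protein-coding genes, 1378 were higher and 895 lower at that limit. The log2 fold change was above 0 for 9 of the 10, with a median of 0.16. The median was -0.016 over all genes tested and 0.018 over the protein-coding genes. For 7 of the 10 genes the lower SD library exceeded the higher NSD library, an arrangement seen for 22.0% of all genes and for 26.5% of protein-coding genes, and for 1 gene the reverse was true, as for 27.5% and 20.0%. In the labels, 1 NSD and 1 SD library share each batch number. When edgeR took that batch as a block it called 3 of the 10, Cobl and Pak1 higher and Ssh3 lower. It called 11.5% of all genes (2.99% higher and 8.47% lower), and of the protein-coding genes 587 higher and 512 lower. DESeq2 without a block called the same 3 genes. It called 9.14% of the 21471 genes that it gave an adjusted p (3.12% higher and 6.03% lower). Of the protein-coding genes it called 608 higher and 278 lower. The outcome for Cobl, Pak1 and Ssh3 therefore depended on the test. The block leaves each gene less spread of its own, so those p-values lean more on the spread of other genes. With a library left out, edgeR called 1 of the 10 without NSD library 1 (1.02% of all genes), 2 without SD library 1 (9.85%), and 0 without NSD library 2 (3.09%) or SD library 2 (4.77%). In such bulk libraries, fewer cells of a type and less RNA per cell cannot be told apart.

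**Figure D2:**
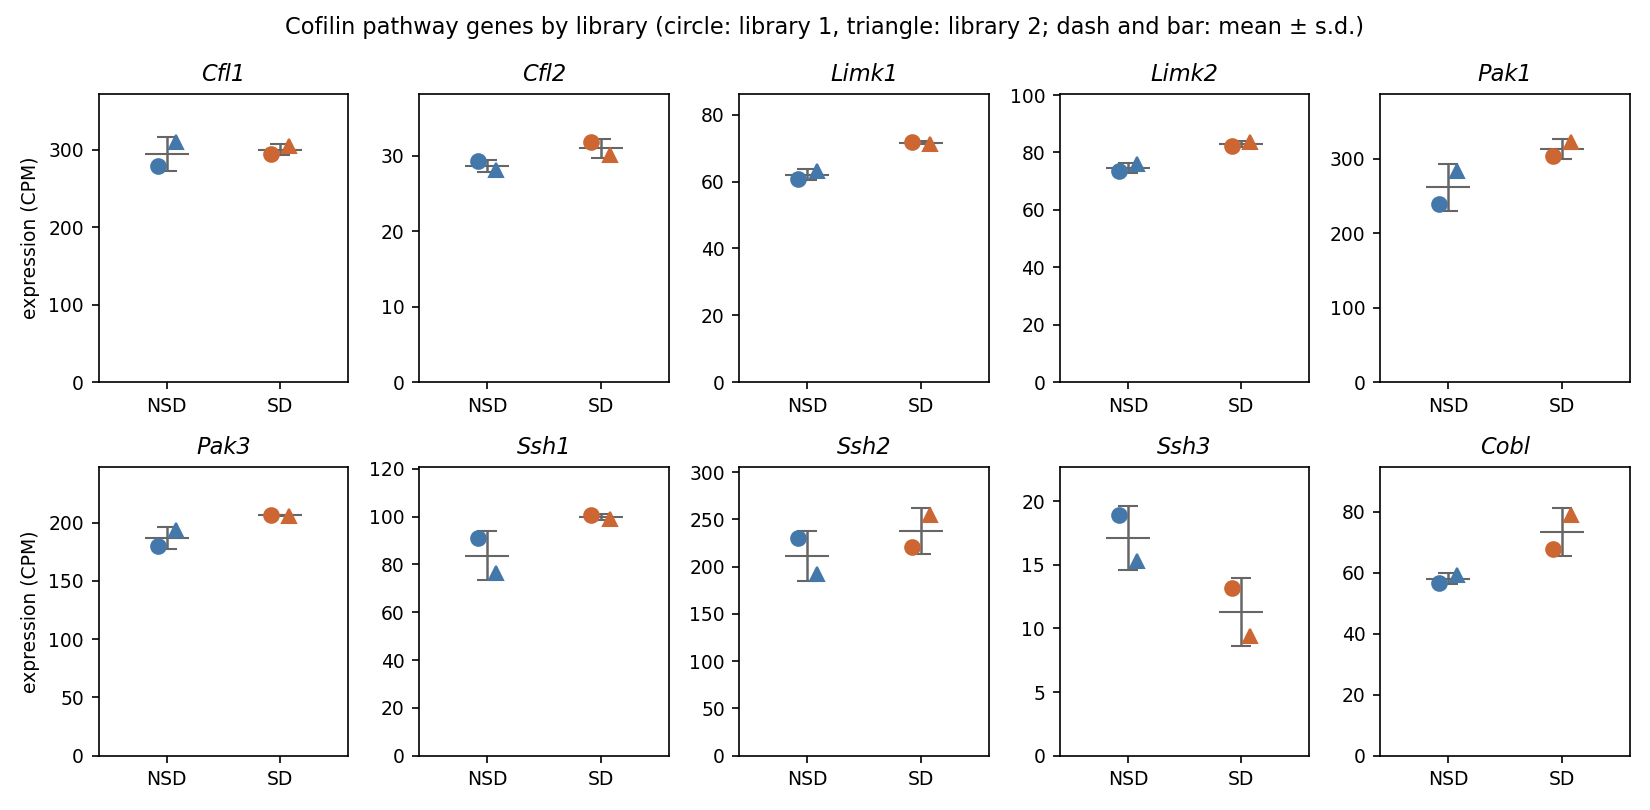
Expression of each gene in CPM, 1 panel a gene with its own axis from 0; circles are library 1, triangles library 2, and the dash and bar give the mean ± s.d. of the 2 libraries. SD points sit above NSD points for 7 genes and below them for Ssh3, and the groups overlap for Cfl1 and Ssh2.

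The cofilins themselves showed small differences. Cfl1 (ENSMUSG00000056201) had 279 and 311 CPM in NSD and 295 and 305 CPM in SD. The SD libraries lay between the NSD libraries. The difference on the log2 scale was 0.023 ± 0.084 (SE, edgeR), with a 95% interval from -0.17 to 0.22 and an adjusted p of 0.927. Without NSD library 1 it turned to -0.021. Cfl2 (ENSMUSG00000062929), the cofilin best known from muscle, had 29.3 and 28.1 CPM in NSD and 31.9 and 30.1 CPM in SD. Both SD libraries were above both NSD libraries, by a small margin. The log2 fold change of Cfl2 was 0.11 ± 0.075 (SE), with an adjusted p of 0.501 in edgeR, and with a library left out it ranged from 0.068 (without SD library 1) to 0.17 (without NSD library 1 or SD library 2). The ratio of Cfl2 to Cfl1 per kilobase was 0.0901 and 0.0780 in NSD and 0.0930 and 0.0848 in SD. The groups overlapped, although within each batch number the SD library had the higher ratio.

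The count of Cfl1 had neighbours that could share its reads. Its exons share 1027 bases, 32.9% of the total, with Snx32 on the opposite strand, and whether the counting used strand was not given in the sources used here. The count assigned to Snx32 was 9.19% of that of Cfl1, and its log2 fold change was -0.19 (adjusted p = 0.260, edgeR). The processed pseudogene Gm6180 (GRCm39, chr8:42699948-42700445, plus strand) carries the 498 coding bases of Cfl1 with 6 changes, which are G105A, G186T, C241T, C333T, G437A and C471G when counted from the first coding base with the base of Cfl1 first. The stretch from base 182 to base 241 is shown because it holds a pair of these differences, in capitals, with none between them:
Cfl1: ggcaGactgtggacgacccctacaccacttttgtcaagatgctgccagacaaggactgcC
Gm6180: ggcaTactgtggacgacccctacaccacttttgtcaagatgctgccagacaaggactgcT
The longest run shared without a difference was 104 bases, which is shorter than a sequencing read. The counts assigned to copies of Cfl1 came to 5.51% to 6.07% of its own count in the 4 libraries. With them added, the log2 fold change of Cfl1 was 0.027 (adjusted p = 0.915, edgeR).

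Both LIM kinases had close replicates and modest differences. Limk1 (ENSMUSG00000029674, chr5:134684893-134717452), the LIM kinase most studied in neurons, had 60.9 and 63.2 CPM in NSD and 72.0 and 71.4 CPM in SD. Every SD library was above every NSD library, and the SD libraries nearly coincided. The log2 fold change of Limk1 was 0.21 ± 0.064 (SE), with a 95% interval from 0.062 to 0.35 and an adjusted p of 0.117 in edgeR. With the block its adjusted p was 0.0249 and with DESeq2 0.0303, but its fold change of 1.16 stayed under the limit of 1.2. Limk2 (ENSMUSG00000020451, chr11:3294256-3359189), the more broadly expressed of the pair, had 73.5 and 76.0 CPM in NSD and 82.1 and 83.8 CPM in SD. Again no SD library reached down to the NSD values. The difference was 0.15 ± 0.064 (SE) on the log2 scale, with an adjusted p of 0.245 in edgeR and 0.0861 with the block. The ratio of Limk2 to Limk1 per kilobase was 0.885 and 0.882 in NSD and 0.837 and 0.861 in SD. This ratio was lower in both SD libraries, by 0.058 on the log2 scale and by 0.038 without SD library 1 (exact permutation test, two-sided, p = 0.333, the smallest that 2 libraries against 2 allow).

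Pak1 and Pak3 encode the kinases that feed into LIM kinase. Pak1 (ENSMUSG00000030774, chr7:97437748-97561588) had 239.7 and 284 CPM in NSD and 303 and 323 CPM in SD. Both SD libraries were above both NSD libraries, although the gap from NSD library 2 to SD library 1 was narrower than the gap between the NSD libraries. The log2 fold change of Pak1 was 0.26 ± 0.098 (SE), with an adjusted p of 0.190 in edgeR. With the block the adjusted p was 0.0204 and with DESeq2 0.0307, at a fold just past 1.2. Without NSD library 1 the value was 0.17, and without NSD library 2 it was 0.39. Pak3 (ENSMUSG00000031284, chrX:142301587-142580792), a neuronal member of the family linked to intellectual disability in people, had 180.1 and 194 CPM in NSD and 207 and 206 CPM in SD. The groups did not overlap. For Pak3 the log2 fold change was 0.14 ± 0.075 (SE), with an adjusted p of 0.358 in edgeR and 0.173 with the block. The ratio of Pak3 to Pak1 per kilobase was 0.465 and 0.423 in NSD and 0.421 and 0.395 in SD. The SD libraries were lower, NSD library 2 and SD library 1 differing by little (exact permutation test, p = 0.333). The log2 difference of this ratio was -0.12, and it was -0.053 without NSD library 1, -0.19 without NSD library 2 and -0.074 without SD library 2.

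The 3 slingshot phosphatases did not move as a group. Ssh1 (ENSMUSG00000042121, chr5:114075155-114131955) had 90.8 and 76.3 CPM in NSD and 100.6 and 99.0 CPM in SD. The SD libraries were close to each other and above NSD libraries that were further apart. The log2 fold change of Ssh1 was 0.26 ± 0.087 (SE), with an adjusted p of 0.152 in edgeR. With the block the adjusted p was 0.0130, with a fold change just under 1.2. Without NSD library 1 the log2 fold change was 0.42 and passed the test (adjusted p = 0.0345, edgeR), whereas without NSD library 2 it was 0.14. Ssh2 (ENSMUSG00000037926, chr11:77107113-77351046) had 229.9 and 193 CPM in NSD and 220.3 and 254 CPM in SD. Here the groups overlapped, since NSD library 1 was above SD library 1. Its log2 fold change was 0.17 ± 0.11 (SE), with an adjusted p of 0.468 in edgeR. Without NSD library 1 it was 0.33 and without NSD library 2 it was 0.046. A pseudogene that lies within Ssh2 on the same strand, Gm12346, shares no exon base with it and was assigned nearly as many counts over the 4 libraries, 154639 beside 156306 for Ssh2. Whether reads of Ssh2 were split with it was not tested.

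Ssh3, the least abundant slingshot, had the opposite direction. Ssh3 (ENSMUSG00000034616, chr19:4311696-4319208) had 18.9 and 15.3 CPM in NSD and 13.2 and 9.40 CPM in SD. Both SD libraries were below both NSD libraries, and within each group library 2 was the lower. Its log2 fold change was -0.60 ± 0.17 (SE), with a 95% interval from -0.98 to -0.22 and an adjusted p of 0.0896 in edgeR. With the block Ssh3 was called lower in SD (log2 fold change of -0.61, adjusted p = 5.57e-04), and DESeq2 called it too (adjusted p = 0.0134). Without SD library 1 the log2 fold change was -0.86 and passed the test (adjusted p = 2.93e-06, edgeR), and without SD library 2 it was -0.36. The lowest count of Ssh3 in a library was 1777, for which counting error alone is 2.37%. The ratio of Ssh3 to Ssh1 and Ssh2 together, per kilobase, was 0.136 and 0.132 in NSD and 0.0925 and 0.0616 in SD. This ratio, added after the values were seen, was lower in both SD libraries by 0.83 on the log2 scale (exact permutation test, two-sided, p = 0.333). The log2 difference was -0.53 without SD library 2 and -1.12 without SD library 1.

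The balance of kinase to phosphatase transcripts did not separate the groups. The summed LIM kinases stood to the summed slingshots, per kilobase, as 0.626 and 0.776 in NSD and as 0.731 and 0.705 in SD. The SD libraries lay between the NSD libraries, and the difference of 0.043 on the log2 scale had an exact permutation p of 1.0. In all, 5 such ratios were computed, and 3 separated the groups at the smallest exact permutation p that the design allows. This p was 0.333, or 0.556 after Benjamini-Hochberg adjustment over the 5, so no ratio could pass a threshold of 0.05. The 3 include Ssh3 to Ssh1 and Ssh2, whose separation was known before it was added and is therefore no test. The permutation did not keep libraries of a batch number together.

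Cobl (ENSMUSG00000020173, chr11:12186608-12414960) had the smallest p of the 10 genes in edgeR without a block. It had 56.7 and 59.3 CPM in NSD and 67.8 and 78.9 CPM in SD. The NSD libraries were close together, and both SD libraries were above them with SD library 2 the higher. On the log2 scale the fold change was 0.34 ± 0.084 (SE), with a 95% interval from 0.15 to 0.53 and an adjusted p of 0.0697 in edgeR. With the block Cobl was called higher in SD (adjusted p = 0.00237), as it was by DESeq2 (adjusted p = 0.00502). Without SD library 1 it passed the test at 0.45 (adjusted p = 0.00255, edgeR), and without SD library 2 the value was 0.24. Of 15096 genes with a mean of at least 1 CPM, those whose profile over the 4 libraries was closest to that of Cobl were Gm14270, Amigo2 and Rasl11a, with root mean square differences of 0.011 to 0.015 in centred log2 CPM. Amigo2, an adhesion protein of CA2 neurons, had 6.82 and 7.20 CPM in NSD and 8.10 and 9.70 CPM in SD. With 4 libraries, likeness of this kind is a description only.

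**Figure D3:**
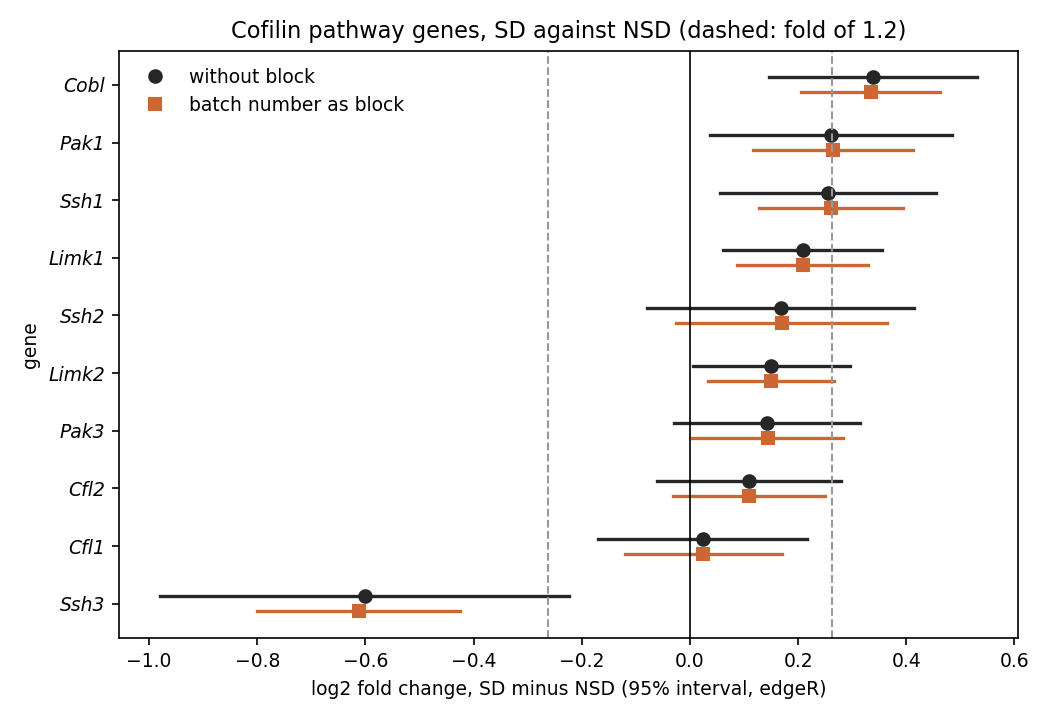
Log2 fold change of each gene, SD minus NSD, with its 95% interval from edgeR without a block (black circles) and with the batch number as a block (orange squares); dashed lines mark a fold of 1.2. Estimates differ little between the fits while intervals narrow with the block, and Ssh3 is the 1 gene below 0.

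Actin genes outside these 10 were read from 5 lists covering 96 tested genes. In edgeR without a block 0 of the 96 were called, beside 3.10% of all genes. An unadjusted p under 0.05 was found for 15 of them, against 19.1% of all genes. Their median log2 fold change was 0.0030, with 51 above 0. Both the fit with the block and DESeq2 called 4 of the 96, all higher in SD. Over all genes these fits called 2.99% and 3.12% higher, and 8.47% and 6.03% lower. The other cofilin regulators, such as further kinases, phosphatases and coronins, had a median of -0.018 over 17 genes. At their extremes were Coro2a, a coronin, with 28.6 and 27.7 CPM in NSD and 33.9 and 39.3 CPM in SD (log2 fold change of 0.38, adjusted p = 0.0574 in edgeR and 0.00418 with the block), and Coro1b at -0.10 (adjusted p = 0.493). Coro2a also passed the test without SD library 1. Destrin, which severs filaments as cofilin does, had a Dstn log2 fold change of -0.059 (adjusted p = 0.792).

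The actin nucleators and their activators had a median of -0.029 over 31 genes. Their highest was Wasf3, a WAVE protein that activates the Arp2/3 complex, with 122 and 125 CPM in NSD and 147 and 153 CPM in SD (log2 fold change of 0.28, adjusted p = 0.0673 in edgeR and 0.00688 with the block). Their lowest was the formin Diaph3, at 1.77 and 1.94 CPM in NSD and 1.23 and 1.22 CPM in SD (log2 fold change of -0.59, adjusted p = 0.223).

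Actin itself differed little. Actg1, the gene of cytoplasmic gamma-actin, had a log2 fold change of 0.012 (adjusted p = 0.971, edgeR) and Actb, the gene of beta-actin, one of -0.13 (adjusted p = 0.666). These were the extremes of 6 genes of actin and monomer binding with a median of -0.023, none of which had an unadjusted p under 0.05. The proteins that bind actin in spines had a median of 0.064 over 20 genes. Ppp1r9b, the gene of spinophilin, was highest with 1681 and 1515 CPM in NSD and 1902 and 1961 CPM in SD (log2 fold change of 0.27, adjusted p = 0.217 in edgeR and 0.0483 with the block). Add3, an adducin, was lowest at -0.23 (adjusted p = 0.128).

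**Figure D4:**
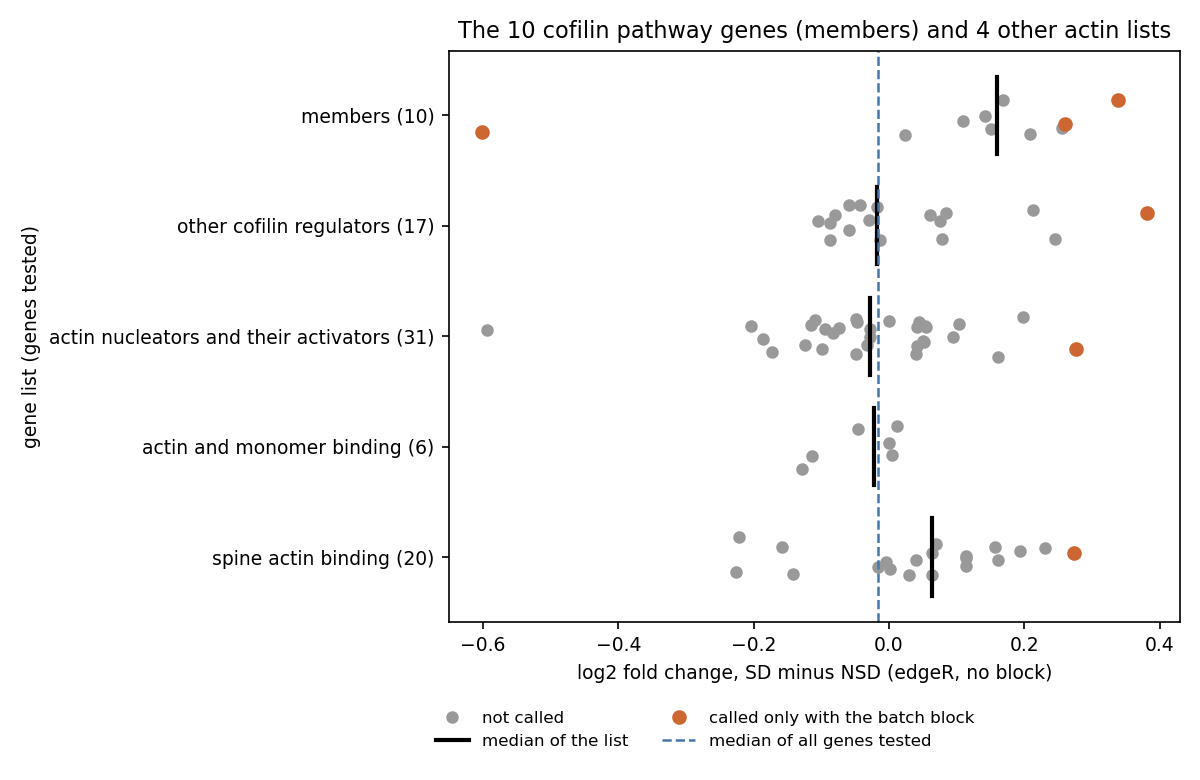
Log2 fold change of each tested gene, SD minus NSD (edgeR without a block), for the 10 genes described here (members) and 4 lists of other actin genes, with the number tested in brackets; black bars are list medians, the dashed line the median of all genes tested, and orange points the genes that edgeR called with the batch block and not without it. The median is 0.16 for the 10 genes and between -0.029 and 0.064 for the other lists.

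The tissue was checked against marker genes of cell classes. None of the markers was at 0 in all 4 libraries, and those of interneurons, glia and vessels were detected beside those of CA1 pyramidal neurons. All 4 libraries came from precipitated ribosomes, so enrichment of tagged cells over the whole tissue was not tested. Summed CA1 pyramidal markers ran from 1510 to 1706 CPM in NSD and from 1367 to 1511 CPM in SD, with 5 of 7 genes lower in both SD libraries and a median log2 fold change of -0.35. Summed inhibitory markers were 857 to 888 CPM in NSD and 794 to 876 CPM in SD. Summed astrocyte markers were 3181 to 3670 CPM in NSD and 3775 to 3786 CPM in SD, but their median log2 fold change was 0.036, with 2 of 8 genes higher in both SD libraries and none called with the block. Summed endothelial markers were 40.5 to 56.9 CPM in NSD and 22.5 to 33.6 CPM in SD, with 7 of 8 genes lower in both SD libraries and a median log2 fold change of -0.76. In edgeR without a block 0 markers of the CA1 pyramidal and endothelial lists were called, and with the block 5 were called in each. Mural markers were 45.5 to 48.9 CPM in NSD and 35.4 to 42.4 CPM in SD, with 3 of 5 genes lower in both SD libraries, a median of -0.26 and 1 called with the block. Summed CA3 and CA2 markers were 91.1 to 95.5 CPM in NSD and 86.6 to 92.5 CPM in SD, while their median log2 fold change was 0.14, with 3 of 4 tested genes above 0, Amigo2 among them, and 1 called with the block, lower in SD. Summed oligodendrocyte markers were 1613 to 1940 CPM in NSD and 1788 to 1872 CPM in SD. With the block 1 inhibitory marker was called lower and 1 oligodendrocyte marker higher. The medians of the classes not given above lay between -0.047 and 0.053. The part of these cell classes in the values of the 10 genes was not tested.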

How the data were processed

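The deposited table held estimated counts per gene, made by the authors from stranded, ribosomal RNA-depleted libraries by trimming bases from the 3′ end, aligning with STAR to mm39 and apportioning reads with Partek's expectation-maximization step; 55.6% of genes had a value that was not whole. Counts were rounded, and genes over 5 counts in all 4 libraries were tested with edgeR 4.0.16 (quasi-likelihood, TMM scaling, Benjamini-Hochberg over 22338 genes). Calls were made at a fold over 1.2 with an adjusted p under 0.05. DESeq2 1.42.0, other scalings and filters, and each library left out in turn, with the lone library of a group assumed to vary like the others, were alternatives. Shared batch numbers in the labels pair the libraries, and same-numbered libraries deviated together (correlation of 0.178), so values with a batch block are given. Sequences and exon lengths came from GENCODE vM39 (GRCm39), newer than the table's annotation. Copies were found with BLAST 2.17.0. The 10 genes and the lists were chosen with earlier results of these data known. From other lists, the highest and lowest gene with at least 1 CPM was named. The result of 1 of the 5 other lists is not reported here, though its genes are in the totals. Tests were checked on simulated counts.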

Additional observations from a re-analysis of the deposited data

How the results depend on the processing

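The number of the 10 genes called was 0 in edgeR without a block, where 3.10% of all genes were called. It was 3 with the replicate block that pairs libraries by batch number (11.5% of all genes) and 3 with DESeq2 (9.14%). When a library was left out it ranged from 0 to 2, with Ssh1 called without NSD library 1 and Ssh3 and Cobl without SD library 1, where 1.02% and 9.85% of all genes were called. Of the 96 other actin genes, 0 were called, 4 with the replicate block, 4 with DESeq2 and 0 to 1 with a library left out. The log2 fold change of Cfl1 ranged from -0.021 to 0.10 when libraries were left out, the ratio of LIM kinases to slingshots from -0.11 to 0.20 and that of Cfl2 to Cfl1 from -0.021 to 0.19 on the log2 scale, each changing sign without an NSD library. The cause of these shifts was not tested. Scaling edgeR by the size factors of DESeq2, testing without a count filter or with another, protein-coding genes only, other fold limits and the addition of pseudogene counts to Cfl1, the last chosen after the data were seen, left the count of calls at 0 and 9 of the 10 genes above 0. For the 10 genes, estimates with the block kept their directions.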

Other observations

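The wider PAK family and an upstream enzyme were looked at after their values were seen. Pak2, the PAK found in most tissues, had 46.1 and 48.7 CPM in NSD and 49.9 and 51.0 CPM in SD, with a log2 fold change of 0.09. Pak4 had 5.92 and 5.98 CPM in NSD and 5.75 and 5.15 CPM in SD, with a log2 fold change of -0.13. Neither passed edgeR's test with or without the block. Pak5 had 50.7 and 44.7 CPM in NSD and 39.6 and 44.2 CPM in SD, below NSD in both SD libraries, and its log2 fold change of -0.19 did not pass either fit (adjusted p = 0.296 in edgeR, 0.131 with the block). Pak6 had 117 and 109 CPM in NSD and 138 and 136 CPM in SD, and its log2 fold change of 0.27 was not called by edgeR without a block (adjusted p = 0.0757) but was called with it (adjusted p = 0.00723) and by DESeq2 (adjusted p = 0.00403). Pde4a, a phosphodiesterase that lowers cyclic AMP, had 174 and 179 CPM in NSD and 196 and 215 CPM in SD. Both SD libraries were above both NSD libraries, and its log2 fold change was 0.22, with an adjusted p of 0.173 in edgeR, 0.0403 with the block, and a fold change of 1.16, under the limit for a call.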
